A study of Mus musculus with 25 samples.

Results

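Nuclear and ribosomal noncoding RNAs that usually lack a poly(A) tail were followed in bulk RNA-seq of mouse hypothalamus. The list names 7 symbols, of which 6 were found among the 24421 genes of the deposited tables: Rn45s, Mir6236, Rpph1, Rmrp, Malat1 and Neat1. Rn7sk, the RNA that holds the elongation factor P-TEFb inactive, was looked for and had no row, so it is not analysed here. The members were chosen from these same tables for large values of Mir6236, Rn45s, Rpph1, Rmrp and Malat1, so their fold changes and their spread are given as a description.

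The mice were wild-type C57BL/6J offspring, killed at 3 months of age. Their dams were fed HCD, a high-sucrose hypercaloric chow with 52% fat, or a regular diet (RD), beginning 1 month before mating and ending with lactation, and the pups were weaned onto HCD or RD. In group names the maternal diet stands first. The labels list HCD-HCD males (3 samples) beside RD-HCD males (3), HCD-HCD females (3) beside RD-HCD females (3), HCD-RD males (3) beside RD-RD males (4), and HCD-RD females (3) beside RD-RD females (3). All were taken from the hypothalamus and made into libraries with a stranded mRNA kit, which captures RNA by its poly(A) tail with oligo(dT) beads. Each pair of groups has 1 deposited table with 6 library columns, called here the HCD-weaned male, HCD-weaned female, RD-weaned male and RD-weaned female sets. The columns carry running numbers that match no label, so a library could be placed in a set but not in a maternal diet group. Each set joins 1 run of numbers between 13 and 24 with 1 run between 25 and 37. These runs could follow the order of the listed groups, but no label says so. Libraries are therefore named by number, each value is given on its own, and no test was made across them.

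These RNAs differ by kind in the polymerase that makes them and in their way of ending. Rn45s is the long precursor made by RNA polymerase I that is cut into the ribosomal RNAs. Rpph1 and Rmrp are short RNA polymerase III products that form the RNA cores of the related enzymes RNase P and RNase MRP. RNase P trims the front of transfer RNA precursors, and RNase MRP takes part in ribosomal RNA processing. Malat1, an RNA of nuclear speckles, and the long form of Neat1, the scaffold of paraspeckles, have their 3′ ends cut by RNase P and protected by a triple helix in place of a tail, while a short form of Neat1 is polyadenylated. Mir6236 is an annotated microRNA gene.

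Stretches of the RNAs are shown first, because the libraries were made by capturing runs of A. Rn45s has no entry in the reference tables. Malat1 and Neat1 are shown where their models carry the same 10 bases, AAAAGCAAAA, in capitals, in GENCODE M21. These are the last 10 bases of the longest Neat1 model (20771 bases), and in Malat1 they fall at positions 6682 to 6691 of a 6983-base model.
Malat1, positions 6657 to 6716: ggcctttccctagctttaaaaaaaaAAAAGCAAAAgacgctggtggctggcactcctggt
Neat1, positions 20712 to 20771: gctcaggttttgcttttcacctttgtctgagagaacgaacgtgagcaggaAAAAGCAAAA

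The motif AAAAGCAAAA occurred once on the sense strand of each of these models and once on the opposite strand. It was present on the sense strand of 1.43% of the longest gene models and on the opposite strand of 1.38%. In Malat1 the motif overlaps the longest run of A in the model, 12 bases at positions 6674 to 6685, and 5.61% of gene models held a run of at least 12 A. In Neat1 the longest run was 7 bases, at positions 9539 to 9545 of the model.

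The last 60 bases of the enzyme RNAs are shown for comparison, since both models lack a long run of A.
Rpph1: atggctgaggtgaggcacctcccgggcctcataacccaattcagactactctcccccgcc
Rmrp: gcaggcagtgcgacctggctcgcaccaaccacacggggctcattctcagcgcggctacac

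Rpph1 (chr14:50807449-50807767, minus strand, GRCm38) has no run of A longer than 2 bases in its 319-base model, of which 67.1% is G or C. Rmrp (chr4:43492783-43493063, minus strand) has none longer than 3 bases in its 281-base model, of which 63.7% is G or C. Of the Rpph1 model, 284 bases lie within Ccnb1ip1 on the same strand, so reads there could be counted for either gene. Ccnb1ip1 had no read in 15 of 24 libraries and at most 1.89 CPM (counts per 1000000 of the library total), in library 26. Of the Rmrp model, 164 bases overlap Ccdc107 on the opposite strand, and no source used here says whether the counting used strand. Ccdc107 ranged over 6.32 to 134.9 CPM, with its highest value in library 22, where Rmrp had 8.97 CPM. Malat1 (chr19:5795690-5802672) and Neat1 (chr19:5824708-5845478) both lie on the minus strand.

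The whole series gave the setting for these values. Library totals ranged from 5413575 counts (library 32) to 34376378 counts (library 26). To compare libraries at equal depth, the number of genes expected with at least 1 read in 5413575 counts was computed. It was 10587 in library 32, 11650 in library 29, 11930 in library 33 and 14529 in library 35, and 15638 to 16674 in the other 20 libraries. Genes with 5 reads or fewer made up 0.446% to 2.82% of the detected genes in those 4 libraries, against a median of 10.3% over all libraries, and the share was also low in libraries 30 (1.87%), 37 (2.30%), 22 (3.67%) and 27 (6.52%), of which 30, 22 and 27 were among the 7 highest for Rpph1. Library 31 stood apart in another way, with 63.6 CPM over 9 markers of choroid plexus and ependyma, against a median of 4354 CPM over all 24 libraries. Of 20 hypothalamic markers, 13 had a median of at least 1 CPM, but only 4 had a read in every library. Pmch, the precursor of melanin-concentrating hormone, ranged from 0 to 877.8 CPM, and Oxt, which encodes oxytocin, from 0 to 165.0 CPM. Xist was at most 0.204 CPM in both male sets and at least 50.5 CPM in both female sets, so the sets matched their labelled sex.

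The ribosomal precursor varied most widely in the RD-weaned male set. Rn45s had 14.8, 23.7 and 158.4 CPM in libraries 19, 20 and 21, and 1816, 6008 and 5226 CPM in libraries 31, 32 and 33. In the HCD-weaned female set it had 90.7, 226.9, 236.3 and 112.8 CPM in libraries 16, 17, 18 and 28, and 7368 and 1848 CPM in libraries 29 and 30. Over all 24 libraries Rn45s exceeded 1000 CPM in 6, the lowest of which was library 31, and the next value below was 609.5 CPM.

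The other sets each held a single high library. In the HCD-weaned male set Rn45s was 609.5 CPM in library 27 and 32.5 to 162.9 CPM in the other 5 libraries. In the RD-weaned female set it was 4744 CPM in library 35, then 335.8 CPM in library 22 and 62.3 to 166.6 CPM in the other 4. The share of all counts taken by Rn45s and Mir6236 together was 1.01% in library 29 and 0.00307% in library 19, with a median of 0.0234%.

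**Figure D1:**
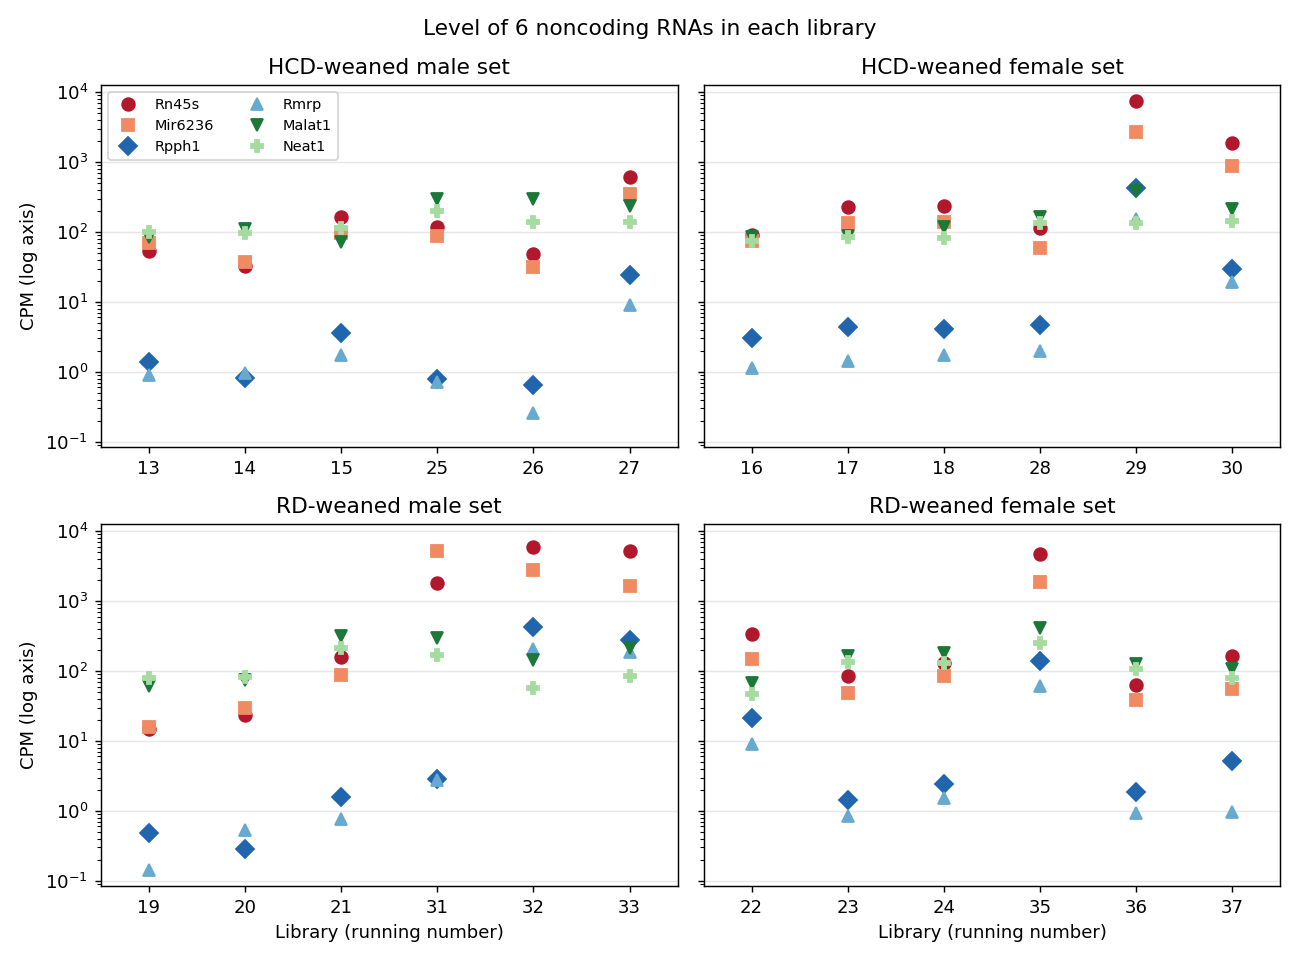
Level of Rn45s, Mir6236, Rpph1, Rmrp, Malat1 and Neat1 in each library, in CPM on a log axis, with 1 panel for each set of 6 libraries and 1 symbol for each RNA. Rn45s, Mir6236, Rpph1 and Rmrp stand high together in libraries 29, 32, 33 and 35, and Malat1 and Neat1 stay between 47.6 and 417.9 CPM throughout.

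Mir6236 followed Rn45s. It had 15.8, 30.1 and 87.6 CPM in libraries 19, 20 and 21 of the RD-weaned male set, and 5162, 2774 and 1659 CPM in libraries 31, 32 and 33. In the HCD-weaned female set it had 2715 CPM in library 29 and 876.6 CPM in library 30, and 59.3 to 140.5 CPM in the other 4. The 7 libraries with the highest Mir6236 were the 7 with the highest Rn45s. Per kilobase of its annotated length, 123 bases, Mir6236 had a median of 717.8 CPM, against 22.2 CPM per kilobase for Malat1 and 10.2 for Rpph1. Whether its reads come from a microRNA transcript or from ribosomal RNA was not tested, so this value is not read as a microRNA level.

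The ratio of Mir6236 to Rn45s counts within a library, which is not corrected for length, had a median of 0.593. It ranged from 0.318 in library 33 to 1.32 in library 13 in all libraries but 1. Library 31 had a ratio of 2.84, the highest of the 24, with the highest Mir6236 level and only the sixth highest Rn45s level.

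Rpph1 and Rmrp had the widest relative ranges of the 6 RNAs, and which was wider rests on a few reads in 1 library each. For Rpph1, in the RD-weaned male set, libraries 19, 20, 21 and 31 had 0.480, 0.289, 1.59 and 2.86 CPM, and libraries 32 and 33 had 426.0 and 279.9 CPM. The value in library 20 rests on 7 reads, with a 95% exact binomial (Clopper-Pearson) interval of 0.116 to 0.595 CPM, which covers counting error only. In library 29 of the HCD-weaned female set Rpph1 had 429.6 CPM, against 29.6 CPM in library 30 and 3.08 to 4.75 CPM in the other 4. Library 35 had 139.0 CPM and library 22 had 21.6 CPM in the RD-weaned female set, where the other 4 had 1.41 to 5.21 CPM. In the HCD-weaned male set library 27 had 24.4 CPM and the others 0.640 to 3.54 CPM. Rpph1 exceeded 100 CPM in 4 libraries, 29, 32, 33 and 35, and no library lay between 29.6 and 139.0 CPM.

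Rmrp split the libraries in the same places. It had 0.144, 0.536, 0.778 and 2.78 CPM in libraries 19, 20, 21 and 31, and 205.8 and 184.3 CPM in libraries 32 and 33. In library 19 it rests on 3 reads, with a 95% exact interval of 0.0297 to 0.420 CPM. Library 29 had 153.1 CPM and library 35 had 61.7 CPM, and no library lay between those 4 and the 19.4 CPM of library 30. The same 7 libraries were highest for Rpph1 and for Rmrp. The ratio of Rmrp to Rpph1 counts had a median of 0.486, and it lay between 0.357 and 0.659 in libraries 29, 32, 33 and 35.

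Library 31 separated Rn45s and Mir6236 from the enzyme RNAs, and Mir6236 from Rn45s. Its Rn45s level was 634.7 times its Rpph1 level in counts, against a median of 39.4 over the 24 libraries and 14.1 in library 32. Its Rpph1 level ranked 14th and its Rmrp level 8th, while its Mir6236 level ranked first and its Rn45s level 6th. The number of genes expected at equal depth in library 31 was 15966.

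**Figure D2:**
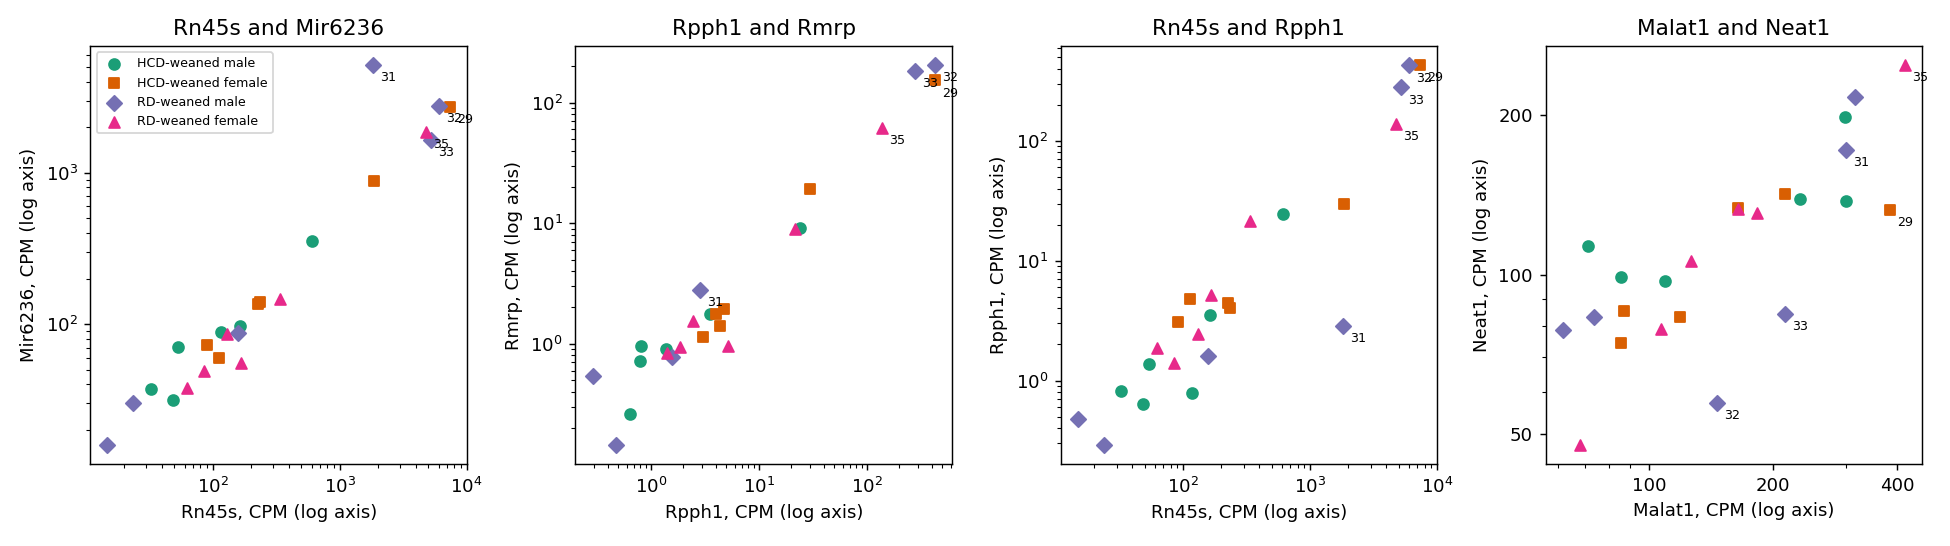
Levels of 4 pairs of RNAs in the 24 libraries, in CPM on log axes, with 1 colour and symbol for each set and the numbers of libraries 29, 31, 32, 33 and 35 where they can be read. Rpph1 and Rmrp run along 1 line, library 31 lies off the line of Rn45s and Mir6236 and of Rn45s and Rpph1, and Malat1 and Neat1 part in libraries 29, 32 and 33.

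Over the 24 libraries, the log2 levels (0.5 CPM added, centred within each set) of Rpph1 and Rmrp had a Pearson r of 0.99 and a Spearman rho of 0.95. Without the 4 libraries with the fewest genes, r over the other 20 was 0.93. Rn45s and Mir6236 had an r of 0.97 and a rho of 0.96, and an r of 0.96 over the 20 libraries. Between the kinds, Rn45s and Rpph1 had an r of 0.91 and a rho of 0.85, and an r of 0.80 over the 20 libraries. Mir6236 and Rpph1 had a lower r of 0.82 and a rho of 0.79, and an r of 0.68 over the 20 libraries. These values describe the libraries, which share depth, preparation and the choice of members, and carry no p.

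Malat1 varied far less than these 4 RNAs. It had 61.7, 73.7 and 316.5 CPM in libraries 19, 20 and 21 of the RD-weaned male set, and 300.0, 146.1 and 213.4 CPM in libraries 31, 32 and 33. In the HCD-weaned male set it had 85.6, 109.4 and 71.1 CPM in libraries 13, 14 and 15, and 298.8, 300.2 and 232.0 CPM in libraries 25, 26 and 27. In the HCD-weaned female set libraries 16, 17, 18 and 28 had 85.3, 86.7, 119.1 and 164.6 CPM, library 29 had 383.2 CPM and library 30 had 214.0 CPM. Its highest level was 417.9 CPM in library 35 of the RD-weaned female set, where the others had 68.1 to 182.4 CPM. In the male sets the highest libraries for Malat1 thus included some in which Rpph1 was low, since libraries 25 and 26 had 0.793 and 0.640 CPM of Rpph1, and library 21 had 1.59 CPM.

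Neat1 ranged from 47.6 CPM in library 22 to 249.0 CPM in library 35. In the HCD-weaned female set its levels lay between 74.3 and 142.1 CPM, and library 29 had 132.4 CPM. In library 32, which ranked first or second for Rn45s, Mir6236, Rpph1 and Rmrp, Neat1 had 57.3 CPM, the second lowest of the 24. The ratio of Malat1 to Neat1 counts had a median of 1.41, and its 3 highest values were 2.90 in library 29, 2.55 in library 32 and 2.54 in library 33. In library 35 the ratio was 1.68. Malat1 and Neat1 had an r of 0.80 and a rho of 0.81 over the 24 libraries, and an r of 0.88 over the 20. Malat1 and Rpph1 had an r of 0.40 over the 24 and 0.14 over the 20.

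The 4 libraries with the fewest genes at equal depth were the 4 highest for Rpph1, for Rmrp and for Rn45s. For Mir6236 they held ranks 2 to 5, behind library 31. For Malat1 library 32 had rank 13, library 29 rank 2, library 33 rank 9 and library 35 rank 1. For Neat1 the same libraries had ranks 23, 10, 17 and 1. Rn45s, Rpph1 and Rmrp were thus highest where the fewest genes were detected, which rests on these 4 libraries. Library 31 had 1816 CPM of Rn45s at 15966 genes, and library 19 had the lowest Rn45s, 14.8 CPM, at 16273 genes. The part of the number of genes detected in the fold changes with maternal diet was not tested.

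**Figure D3:**
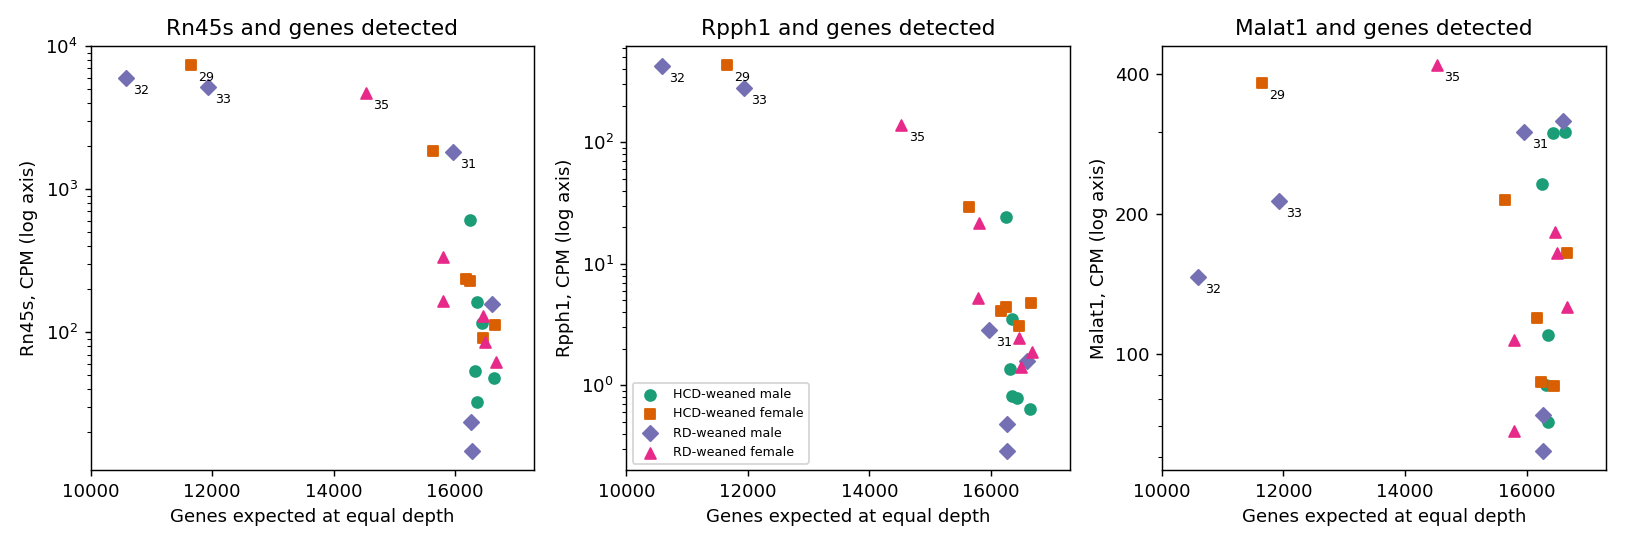
Level of Rn45s, Rpph1 and Malat1, in CPM on log axes, against the number of genes expected with a read in 5413575 counts, for the 24 libraries. Libraries 29, 32, 33 and 35 lie at the left with 10587 to 14529 genes and the highest Rn45s and Rpph1, while their Malat1 levels spread over 146.1 to 417.9 CPM.

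Set beside all other genes, the spread of Rn45s, Mir6236, Rpph1 and Rmrp was far up the range in the HCD-weaned male and RD-weaned female sets. It was less so in the others, where more genes had no read in some library. In the HCD-weaned male set the highest library over the lowest was 18.8 for Rn45s, 11.1 for Mir6236, 38.1 for Rpph1 and 34.8 for Rmrp, against 1.95 for the median of 14246 genes with a mean of at least 1 CPM. Rpph1 exceeded 99.7% of those genes, Malat1 (ratio 4.22) exceeded 91.4% and Neat1 (ratio 2.04) exceeded 55.0%. In each of the 4 sets 4 members had a ratio above 10. In the HCD-weaned male set none had without library 27, where the ratios were 5.02 for Rn45s, 3.04 for Mir6236, 5.53 for Rpph1 and 6.69 for Rmrp. Without library 26, which had 9 reads of Rmrp, the Rmrp ratio was 12.8.

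The ratios were larger where a set held libraries with few genes. In the HCD-weaned female set they were 81.3 for Rn45s, 45.8 for Mir6236, 139.6 for Rpph1 and 134.6 for Rmrp. In the RD-weaned male set they were 405.4, 326.1, 1476 and 1430 in the same order of RNAs. Without library 19 those of Rn45s, Mir6236 and Rmrp were 253.4, 171.7 and 383.8, without library 31 that of Mir6236 was 175.3, and without library 20 that of Rpph1 was 888.1. Without library 32, that of Rpph1 was 969.4. In the RD-weaned female set they were 76.2, 49.0, 98.6 and 73.0. Many other genes had no read at all in some library, 2477 of 14119 genes in the HCD-weaned female set and 4398 of 14063 in the RD-weaned male set. Such genes have no upper limit to their ratio and count here as above the members. Among genes with a mean of at least 1 CPM, Rpph1 exceeded 81.8% in the HCD-weaned female set, 68.7% in the RD-weaned male set and 96.4% in the RD-weaned female set, and Malat1 (ratio 5.13) exceeded 50.6% in the RD-weaned male set. By a choice made after seeing the data, among the 9665 genes with a read in all 6 libraries of the RD-weaned male set, Rpph1 exceeded 99.98% and Malat1 exceeded 73.7%. Among the 11642 such genes of the HCD-weaned female set, Rpph1 exceeded 99.2% and Malat1 exceeded 84.3%. Without libraries 29, 32, 33 and 35 the Rpph1 ratio was 9.61 in the HCD-weaned female set, 9.91 in the RD-weaned male set and 15.3 in the RD-weaned female set. Without those libraries the Rn45s ratio was 20.4, 122.5 and 5.39 in those sets, the 122.5 resting on library 31. Without library 29 the HCD-weaned female ratios of Mir6236 and Rmrp were 14.8 and 17.05, and without library 35 the RD-weaned female ratios were 3.87 and 10.6.

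Other small RNAs made without a usual poly(A) tail were looked up in the same libraries. Of 49 listed, 26 had a row, 6 of these had no read in any library, and 16 never reached 1 CPM. Snord17, a small nucleolar RNA, had 28.8, 33.2, 25.5 and 15.015 CPM in libraries 29, 32, 33 and 35 and at most 2.60 CPM in the other 20. In those 4 libraries this is the order of Rpph1 except that libraries 29 and 32 change places. Vaultrc5, a vault RNA, had 15.9, 15.7 and 8.16 CPM in libraries 29, 32 and 35 but no read in library 33.

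Other small RNAs were high in some of these libraries and had no read in others. Scarna10, a guide RNA of Cajal bodies, had 28.1, 6.69 and 4.26 CPM in libraries 32, 29 and 35 and no read in library 33. Scarna6, of the same class, had 11.2 CPM in library 33 and no read in libraries 29 and 32. Snora74a had 12.2 and 9.46 CPM in libraries 29 and 35 and no read in libraries 32 and 33. Rnu12, the U12 RNA of the minor spliceosome, had 104 reads (19.2 CPM) in library 32, 61 reads in library 35 and none in libraries 29 and 33. Snord104 had its highest level, 8.42 CPM, in library 18, and 5.52, 0, 3.15 and 5.56 CPM in libraries 29, 32, 33 and 35, against a median of 4.43 CPM. Mir703 had 0.117, 0.185, 0.137 and 2.07 CPM in those 4 libraries, against a median of 3.01 CPM. In library 31, where Rn45s was high, Snord17 and Vaultrc5 had no read. Of these small RNAs 3 had an adjusted p for HCD-weaned males, 6 for HCD-weaned females, 3 for RD-weaned males and 5 for RD-weaned females, and none was called by DESeq per the authors' deposited tables. The unadjusted p was under 0.05 for 1, 3, 1 and 2 of them in the same order of comparisons. Of those, 0, 3, 0 and 2 were negative. Among all genes tested, 8.14% for HCD-weaned males, 13.3% for HCD-weaned females, 4.3% for RD-weaned males and 6.16% for RD-weaned females had an unadjusted p under 0.05. The example with the largest value in HCD-weaned females was Snord17, with a log2 fold change of -1.13 ± 0.41 (adjusted p = 0.137), per the authors' deposited table. In RD-weaned females it was Scarna6, with -0.47 ± 0.21 (adjusted p = 0.666). In males the largest values were positive per the authors' deposited tables. They were 1.01 ± 0.30 for Snord104 in HCD-weaned males (adjusted p = 0.232) and 1.24 ± 0.44 for Mir703 in RD-weaned males (adjusted p = 0.517).

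**Figure D4:**
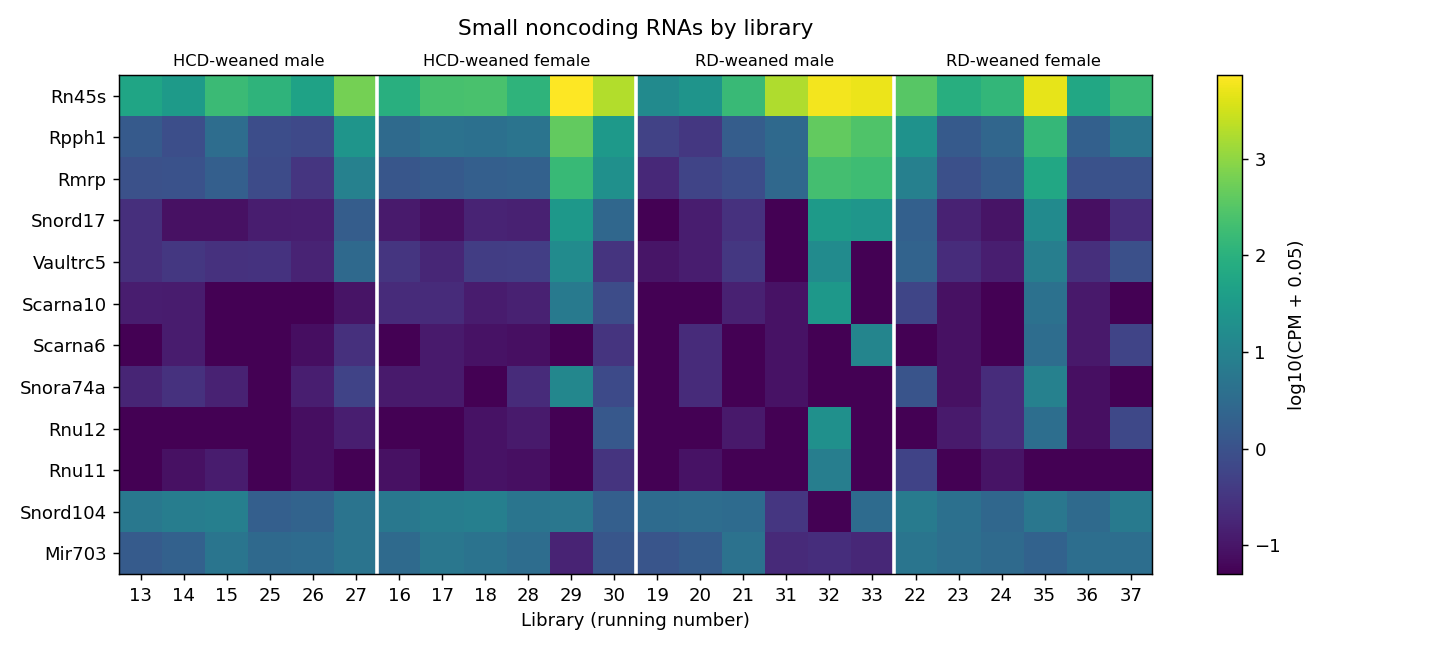
Levels of Rn45s, Rpph1, Rmrp and 9 other small RNAs that reached 5 CPM in some library, as log10 of CPM plus 0.05, for the 24 libraries in 4 sets. Libraries 29, 32, 33 and 35 are bright for Snord17 as for Rpph1 and Rmrp, and Snord104 and Mir703 do not share that pattern.

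By the rule of highest r, the 5 genes outside the members most like Rn45s over the 24 libraries were Vegfb (0.85), Prdx6 (0.84), Trip10 (0.82), Bcas1 (0.82) and Rabl6 (0.82). Vegfb encodes a growth factor of the VEGF family and Prdx6 a peroxiredoxin. Their ranges were narrow: Vegfb went from 79.5 CPM in library 25 to 198.0 CPM in library 32, and Bcas1, a gene of myelinating cells, from 465.0 to 1502 CPM. The median r with Rn45s over 13639 genes was -0.25. For Malat1 the 5 were Miat (0.91), Leng8 (0.89), Nvl (0.88), Map2 (0.88) and Snhg11 (0.86), and the median gene had -0.04. Miat, another long nuclear RNA, went from 19.8 CPM in library 19 to 157.4 CPM in library 35, the libraries that were also lowest and highest for Malat1. Snhg11, a long noncoding RNA of neurons, went from 134.1 to 777.5 CPM in the same libraries, and Map2, a microtubule protein of neurons, from 273.8 CPM in library 17 to 776.8 CPM in library 26.

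The authors' deposited tables compare offspring of HCD dams with offspring of RD dams in each set. A positive log2 fold change was taken to mean a higher level with HCD dams. The labels mark RD dams as control for HCD-weaned offspring, while for RD-weaned offspring the reading rests on the order of the group codes alone. The deposited mean of each gene equalled the mean of the 6 columns divided by median-of-ratios size factors, to within 1e-06 of its value, so each comparison rests on the 6 libraries described above. Of 24 values (6 RNAs in 4 tables), 23 were negative per the authors' deposited tables, 6 had an adjusted p under 0.05, all of them negative, and 6 had no p. Over all genes tested, the negative share by comparison lay between 45.6% and 51.1%, and the called share between 0.0851% and 1.52%. The members were chosen from their own 24 values. Some of them follow each other closely over the libraries, with an r of 0.99 for Rpph1 and Rmrp, so these are not 24 separate observations. The 7 libraries highest for Rn45s and Mir6236 were 27, 29, 30, 31, 32, 33 and 35, all in the upper run of numbers of their sets. The part of these libraries in the shared sign was not tested. Since no label says that the animals of a group were from separate litters, the p-values measure only the spread between these samples.

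**Figure D5:**
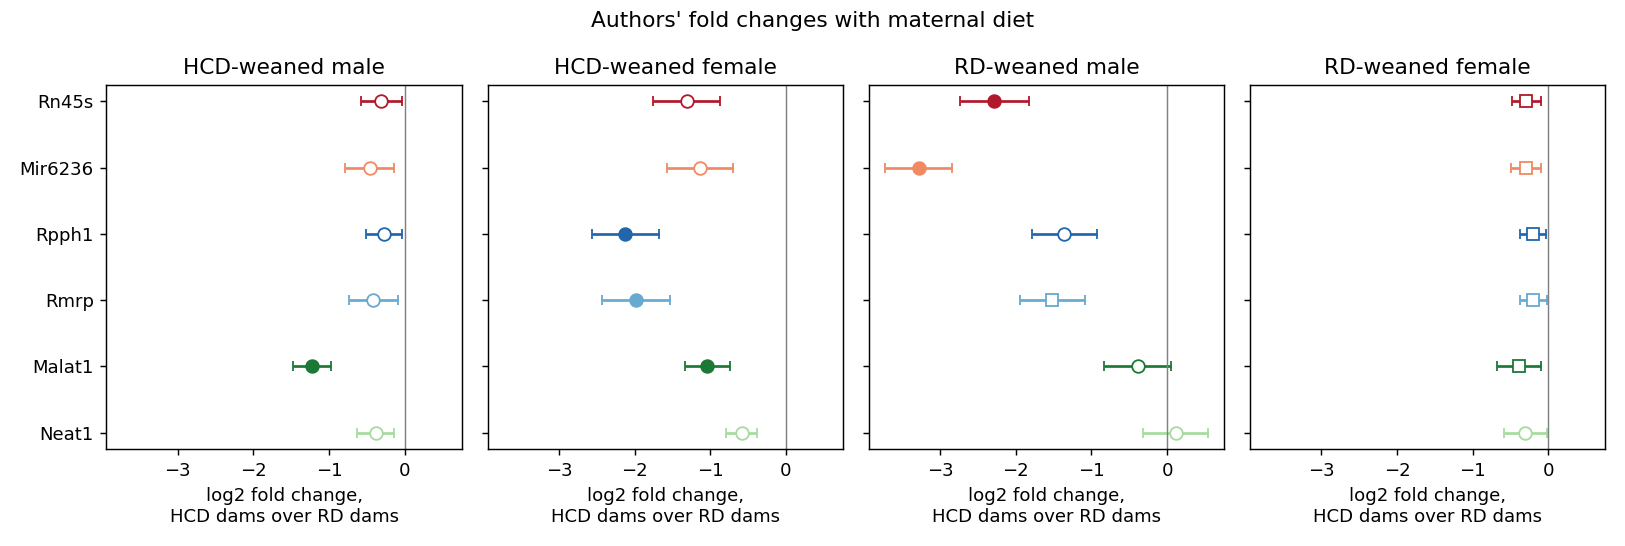
Log2 fold change of offspring of HCD dams over offspring of RD dams per the authors' deposited tables, with the standard error as bars, for 6 RNAs in 4 comparisons. Filled circles have an adjusted p under 0.05, open circles do not, and open squares have no p in the table; all but Neat1 in RD-weaned males lie below 0.

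Rn45s and Mir6236 had their largest fold changes in RD-weaned males. Mir6236 had a log2 fold change of -3.28 ± 0.45 (standard error; adjusted p = 2.28e-09) and Rn45s one of -2.29 ± 0.45 (adjusted p = 0.00201) per the authors' deposited table. These 2 were among the 6 genes called lower in offspring of HCD dams there, and those 6 were 0.0464% of the 12920 genes tested. The other direction held 5 genes, or 0.0387%. The 6 libraries behind this comparison ranged from 14.8 to 6008 CPM of Rn45s, and no library lay between 158.4 and 1816 CPM. Of 6 neuron markers, 4 were positive and 2 negative there, and 1 was called, Snap25, a synaptic protein (0.88, adjusted p = 2.31e-06), per the authors' deposited table. Of 6 astrocyte markers, 1 was positive and 5 negative, and none was called or had an unadjusted DESeq p under 0.05. Their part in these values was not tested. In HCD-weaned females Rn45s had -1.31 ± 0.44 (adjusted p = 0.0970) and Mir6236 -1.14 ± 0.44 (adjusted p = 0.176) per the authors' deposited table. In HCD-weaned males the deposited table of the authors gave -0.31 ± 0.27 for Rn45s (adjusted p = 0.788) and -0.46 ± 0.32 for Mir6236 (adjusted p = 0.727).

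The enzyme RNAs had adjusted p-values under 0.05 in HCD-weaned females. Rpph1 had a log2 fold change of -2.12 ± 0.45 (adjusted p = 0.00133) and Rmrp one of -1.98 ± 0.45 (adjusted p = 0.00337) per the authors' deposited table. With Malat1 they made 3 of the 81 genes called lower in offspring of HCD dams, and those 81 were 0.538% of 15043 genes tested. Called higher were 0.984%. The set includes library 29, which alone had 429.6 CPM of Rpph1, and the value without it could not be fitted because its maternal diet group is not known here. Of 6 astrocyte markers, 5 were negative in this comparison and 1, Aqp4 (-1.25), was called lower, per the authors' deposited table. Of 6 neuron markers, 4 were positive and 2 negative, and 1, Tubb3 (0.83), was called higher, while Rbfox3 had -0.40 (adjusted p = 0.366), per the authors' deposited table. The part of these markers was not tested. In RD-weaned males Rpph1 had -1.36 ± 0.42 (adjusted p = 0.276), and Rmrp had -1.52 ± 0.43 with no p, per the authors' deposited table. HCD-weaned males had -0.27 ± 0.24 for Rpph1 (adjusted p = 0.783) and -0.42 ± 0.32 for Rmrp (adjusted p = 0.755) per the authors' deposited table.

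Malat1 had an adjusted p under 0.05 in both HCD-weaned sets. In HCD-weaned males its log2 fold change was -1.22 ± 0.25 (adjusted p = 0.00242) per the authors' deposited table, and it was 1 of the 18 genes called lower in offspring of HCD dams, which were 0.117% of 15384 tested. Called higher were 0.0455%. All 6 libraries of that set had 16249 to 16640 genes at equal depth. Their Malat1 levels ranged from 71.1 to 300.2 CPM, and no library lay between 109.4 and 232.0 CPM. In HCD-weaned females the value was -1.04 ± 0.30 (adjusted p = 0.0408) per the authors' deposited table. Adjusted over all 19006 genes with a p in that table, its p was 0.0516, so this call is lost. In RD-weaned males it was -0.39 ± 0.44 (adjusted p = 1) per the authors' deposited table.

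Markers of the tissue were called in the same comparison of HCD-weaned males as Malat1. Of 20 hypothalamic markers, 17 had a negative log2 fold change per the authors' deposited table, with a median of -0.82, and 5 were called lower: Oxt (-2.27), Pmch (-1.93), Hcrt (-1.73), Fezf1 (-1.55) and Sim1 (-1.37). Over all genes tested there, 51.1% were negative and 0.117% were called lower. In HCD-weaned females, where Malat1 was also called, 9 markers were negative and 7 positive, with a median of -0.07 and none called. Negative were 9 of 12 in RD-weaned males and 15 of 17 in RD-weaned females, with none called, per the authors' deposited tables. The summed level of the 20 markers over all libraries ranged from 207.1 CPM in library 19 to 1943 CPM in library 37. Their part in the Malat1 value was not tested. In bulk tissue, fewer cells of a type and less RNA per cell cannot be told apart.

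Neat1 had no adjusted p under 0.05 in any of the 4 comparisons. In the authors' deposited tables it had -0.38 ± 0.24 in HCD-weaned males (adjusted p = 0.692), -0.58 ± 0.21 in HCD-weaned females (adjusted p = 0.123), 0.11 ± 0.43 in RD-weaned males (adjusted p = 1) and -0.31 ± 0.29 in RD-weaned females (adjusted p = 1). The value in RD-weaned males is the only positive one of the 24.

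In RD-weaned females 5 of the 6 members had a fold change but no p. The authors' deposited table gave -0.29 ± 0.19 for Rn45s, -0.29 ± 0.20 for Mir6236, -0.20 ± 0.18 for Rpph1, -0.20 ± 0.17 for Rmrp and -0.39 ± 0.29 for Malat1. Library 35 of this set was 14.1 times the next library for Rn45s. These deposited fold changes are the smallest in size of the 4 comparisons for Rn45s, Mir6236, Rpph1 and Rmrp. For Rn45s, any split of the 6 libraries into equal groups gives a log2 ratio of group means larger in size than -0.29. No gene in RD-weaned females had a standard error above 0.296, against a largest value of 0.454 in RD-weaned males. How the deposited fold changes were estimated is not known here. Sizes in different comparisons are therefore not read as larger or smaller effects of maternal diet. Among all genes with the status OK, the authors' deposited tables gave no p for 342 (2.23%) in RD-weaned females and for 1554 (10.7%) in RD-weaned males, against 0 in both HCD-weaned comparisons. Of 15028 genes tested there, 0.226% were called lower and 0.12% higher in offspring of HCD dams, and no member was among them. Neat1, the 1 member with a p there, had an unadjusted DESeq p of 0.283, per the authors' deposited table.

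The protein partners of the enzyme RNAs were not called in any comparison. Of 11 protein subunits of RNase P and RNase MRP, 10 of 11 tested had a positive log2 fold change in HCD-weaned males, 8 of 11 in HCD-weaned females, 4 of 8 in RD-weaned males and 9 of 11 in RD-weaned females, per the authors' deposited tables. Their medians were 0.18, 0.38, -0.14 and 0.18 in that order, against -0.01, 0.04, 0.00 and 0.01 for all genes tested. In HCD-weaned females, where Rpph1 had -2.12, the subunit genes Rpp25l and Rpp30 had 0.87 ± 0.32 (adjusted p = 0.145) and 0.64 ± 0.41 (adjusted p = 0.533) per the authors' deposited table. The summed level of the 11 genes ranged over 123.8 to 565.3 CPM. At the unadjusted DESeq p under 0.05, 2 of these genes passed for HCD-weaned males, 1 for HCD-weaned females and none for RD-weaned offspring, all positive, per the authors' deposited tables. The shares of all genes tested were 8.14%, 13.3%, and 4.3% and 6.16% for RD-weaned males and females.

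Genes that make and process ribosomal RNA were likewise not called. None of 15 genes for RNA polymerase I and its initiation factors, and none of 17 for nucleolar processing proteins, had an adjusted p under 0.05 per the authors' deposited tables. In RD-weaned males, where Rn45s had -2.29, Polr1a, the largest polymerase I subunit, had -0.75 ± 0.34 (adjusted p = 1), and the median of the 12 polymerase genes tested was -0.02, per the authors' deposited table. The processing gene Nop2, a ribosomal RNA methyltransferase, had -0.61 ± 0.38 (adjusted p = 1) there per the authors' deposited table. At the unadjusted DESeq p under 0.05, the polymerase genes that passed numbered 1, 2, 1 and 1 for HCD-weaned males, HCD-weaned females, RD-weaned males and RD-weaned females, and the processing genes 2, 3, 0 and 0, per the authors' deposited tables, against 8.14%, 13.3%, 4.3% and 6.16% of all genes tested. Summed levels over the libraries ranged over 394.3 to 556.4 CPM for the polymerase genes and 963.5 to 1217 CPM for the processing genes.

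Of 9 genes for Malat1 maturation and nuclear speckles, 1 was called. Srrm2, a scaffold protein of speckles, had -0.94 ± 0.27 (adjusted p = 0.0408) in HCD-weaned females per the authors' deposited table, beside -0.86 ± 0.26 (adjusted p = 0.251) in HCD-weaned males. The call is lost when the p is adjusted over all genes with a p (0.0516). None of 11 paraspeckle protein genes, the partners of Neat1, and none of 7 genes of the 7SK particle and P-TEFb, the partners of Rn7sk, were called. The unadjusted DESeq p was under 0.05 for 1 paraspeckle gene and 3 genes of the 7SK list in HCD-weaned females and for 1 gene of the 7SK list in HCD-weaned males, per the authors' deposited tables, against 13.3% and 8.14% of all genes tested. Among them, Nono had -0.53 ± 0.26 (adjusted p = 0.349) and Cdk9, the P-TEFb kinase, 0.99 ± 0.32 (adjusted p = 0.0807) in HCD-weaned females per the authors' deposited table. Ccnt1, of the same list as Cdk9, went the other way there, with -0.95 ± 0.45 (adjusted p = 0.315). Of the 7 genes of that list, 4 were positive and 3 negative in HCD-weaned females.

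Other long nuclear RNAs were negative more often than positive in 3 comparisons. Of those tested, 12 of 16 were negative in HCD-weaned males, 13 of 17 in HCD-weaned females and 15 of 17 in RD-weaned females, against 4 of 11 in RD-weaned males, per the authors' deposited tables. Over all genes tested in these 4 comparisons the negative share lay between 45.6% and 51.1%. The medians were -0.30, -0.33, -0.32 and 0.02 in the same order. In HCD-weaned females 3 were called lower per the authors' deposited table: Firre (-1.23 ± 0.35, adjusted p = 0.0408), Xist (-0.94 ± 0.21, adjusted p = 0.00331) and Meg3 (-0.66 ± 0.17, adjusted p = 0.0202). That of Firre is lost when adjusted over all genes with a p (0.0516). Xist coats the inactive X chromosome, Firre is another X-linked nuclear RNA, and Meg3 is a maternally expressed RNA. As a background for these lists, the share of all genes tested that was called in either direction was 0.163% for HCD-weaned males and 1.52% for HCD-weaned females. It was 0.0851% for RD-weaned males and 0.346% for RD-weaned females. Like Malat1, Meg3 had its lowest level in library 19 (226.2 CPM) and its highest in library 35 (1600 CPM).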

How the data were processed

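The labels describe 25 hypothalamus samples in 8 groups. DESeq (version not given) and the build mm10 are named in the submitters' processing notes. Which aligner, counter and annotation were used is not given in the sources. From 12 deposited files, 8 were used: 4 tables of counts per gene and library, deposited as whole numbers, and 4 comparison tables. The mean in the comparison tables is a normalized signal, per the file headers. Fold changes and standard errors are log2 values, per the file headers. The largest standard error of any gene ranged from 0.30 in RD-weaned females to 0.45 in RD-weaned males. In RD-weaned females the normalized count of Rn45s was 113440 in library 35 and 1350 to 8681 in the other libraries. With groups of equal size, the mean of the group holding library 35 would exceed every other library. The deposited log2 fold change of -0.29 is smaller in size than the ratio of group means from any such split. Deposited fold changes can thus be smaller in size than plain ratios of group means. Whether the fit drew them toward 0 was not tested. The Wald statistic is a score the authors deposited, and the p-values are those the authors deposited. A further 24 columns of regularized log values of the same libraries were not used. Library columns carry running numbers that match no sample label, so the planned edgeR test, its filters, left-out replicates and replicate blocks were not run, and the authors' deposited p-values stand in their place. The RD-weaned male table has 6 columns for 7 labelled samples.

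Counts were divided by column totals (CPM). Highest over lowest ratios were ranked among genes with a mean of at least 1 CPM. Genes expected at equal depth follow from drawing 5413575 reads from each library. Intervals are exact binomial at 95% and cover counting error only. Likeness is Pearson's r of log2(CPM + 0.5), centred within each set. Genes were called at an adjusted p under 0.05. Alternatives were size factors, TMM (edgeR 4.0.16), totals without the members, left-out libraries, other thresholds and other adjustments. The functions were tested on simulated data. Sequences are from GENCODE M21 and gene lengths from RefSeq (GRCm38.p6), the same assembly as mm10; the sequence of Mir6236 is not reported here. Named genes are the members; of each companion list the genes called in a comparison, otherwise the 2 largest fold changes, from which examples are given; and the 5 genes most like Rn45s and Malat1. The members and lists were chosen with earlier results of these data known.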

Additional observations from a re-analysis of the deposited data

How the results depend on the processing

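No paired analysis was possible because the library columns carry no replicate number or group. For the same reason the planned edgeR and DESeq2 fits, their filter and normalization alternatives and the fits that leave out a replicate were not run. In each set 4 members had a highest over lowest ratio above 10, and this count was also 4 with size factors, with TMM factors and with totals that leave out the members. Without the library with the highest Rn45s it was 0 in the HCD-weaned male set (library 27) and 2 in the RD-weaned female set (library 35). Leaving out each library in turn gave 0 to 4 in the HCD-weaned male set, 3 to 4 in the HCD-weaned female set, 4 to 4 in the RD-weaned male set and 2 to 4 in the RD-weaned female set. An alternative chosen after seeing the data, without libraries 29, 32, 33 and 35, gave 3, 3 and 2 in the HCD-weaned female, RD-weaned male and RD-weaned female sets. Genes called at an adjusted p under 0.10 were 450, 23 and 90 in HCD-weaned females, RD-weaned males and RD-weaned females, against 229, 11 and 52 at 0.05 in the authors' deposited tables. At 0.10 Rn45s in HCD-weaned females (adjusted p = 0.0970) would also be called. Adjusting the deposited p-values over all genes with a p, or over those whose mean normalized count reached 10, kept every count of genes and members called within 1.5 times, but over all genes with a p the members called in HCD-weaned females were 2 in place of 3, with Malat1 lost at 0.0516. Centring on the median gene reversed none of the 24 fold changes. Depth limits the lowest values, which rest on 7 and 10 reads of Rpph1 in libraries 20 and 19 and on 3 and 9 reads of Rmrp in libraries 19 and 26.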

Other observations

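Replication-dependent histone mRNAs, which usually end in a stem-loop in place of a poly(A) tail, had 35 rows. Whether their reads here came from transcripts with a tail was not tested. Most were near 0, and Hist1h2bc carried most of the reads, with 12.475 CPM in library 31 and 101.8 CPM in library 17. It was the 1 gene of this list called in any comparison, higher in offspring of HCD dams in HCD-weaned females (0.98 ± 0.24, adjusted p = 0.0116, per the authors' deposited table). Several histone genes had their highest level in library 32: Hist2h2be had 40.6 CPM there and at most 16.98 CPM elsewhere, Hist1h1e 14.2 against at most 2.19 CPM, and Hist1h3e 10.2 against at most 0.293 CPM. In library 29, which also had high Rpph1, Hist1h1e, Hist1h4h and Hist1h4i had no read. Hist3h2a went the other way, with its highest level, 28.2 CPM, in library 29 and no read in library 32.

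Library 31 was lowest of the 24 in the summed level of several lists, with 123.8 CPM for RNase P and MRP proteins, 309.1 CPM for 6 microglia markers and 45.6 CPM for the histone genes. It was highest for 9 genes of Malat1 maturation and nuclear speckles, with 1308 CPM. Peg13, an imprinted long noncoding RNA, was highest there at 703.6 CPM, and Gas5, the host gene of small nucleolar RNAs, was lowest there at 25.8 CPM, against a median of 204.5 CPM.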
